A study of Capra hircus with 4 samples.

Results

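The genes that release calcium inside a skeletal muscle fibre and pump it back were followed in 4 RNA-sequencing libraries of goat muscle. The 10 genes listed for this system were RYR1, CACNA1S, STAC3, TRDN, JPH1, JPH2, CASQ1, CASQ2, ATP2A1 and ATP2A2. A gene was included when at least 1 unigene, an assembled transcript cluster, was paired with its symbol in the table of goat protein matches that came with the series. Of the 10 genes, 8 were found there, and they were represented by 11 of the 59774 unigenes, among 11208 named goat genes in all. CACNA1S and JPH2 had no unigene under their own symbol.

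All 4 libraries came from the longissimus dorsi, the long muscle of the back, of Cashmere goats labelled as 2 months old. There was 1 control library and there were 3 treated libraries. The treated goats received ractopamine, a β-adrenergic agonist used as a growth promoter, by mouth at 1 mg/kg body weight every morning for 28 dosing days, which were followed by 21 withdrawal days. The labels call the 3 treated libraries replicates, whereas the study states that RNA was sequenced on several days of dosing and withdrawal with corresponding controls. The labels give no sampling day for a library and do not say which or how many goats it holds, so each treated library was set against the single control library under its own number, and a spread between the treated libraries may hold differences between days as well as between animals. The libraries were made from whole muscle, in which fewer fibres of a type and less RNA per fibre cannot be told apart.

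When a motor nerve excites a skeletal muscle fibre, the voltage sensor in the transverse tubule (CACNA1S, placed and coupled with the help of STAC3) opens the ryanodine receptor RYR1, the release channel of the sarcoplasmic reticulum. Junctophilins (JPH1 and JPH2) hold the 2 membranes together at the triad. Triadin (TRDN) links the release channel to calsequestrin (CASQ1 in fast fibres, CASQ2 in heart and, with CASQ1, in slow fibres), which stores calcium in the lumen. The SERCA pumps then return calcium from the cytosol, with SERCA1 (ATP2A1) in fast fibres and SERCA2 (ATP2A2) in slow fibres and heart.

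The calsequestrins and the SERCA pumps are each a pair of related genes, so stretches of the sequences assembled from these libraries are shown first. The genes were told apart by the table of goat protein matches and not by these stretches. The last 90 coding bases of the CASQ1 unigene (c6659_g1, bases 1474 to 1563) and of the CASQ2 unigene (c12729_g2, bases 1342 to 1431) encode the acidic tail that binds calcium. Capitals mark aspartate codons (GAT or GAC).
CASQ1: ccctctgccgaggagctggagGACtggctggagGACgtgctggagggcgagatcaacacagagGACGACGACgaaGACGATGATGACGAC
CASQ2: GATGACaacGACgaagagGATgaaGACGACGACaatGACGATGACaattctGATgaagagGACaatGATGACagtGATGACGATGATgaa
The CASQ1 tail held 10 aspartate codons among its 30 codons and the CASQ2 tail held 18, and over the whole coding regions there were 50 of 397 and 54 of 430.

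The single ATP2A1 unigene (c8638_g1) held a coding region of 993 codons, whereas ATP2A2 was assembled in 4 pieces. Aligned to ATP2A1 codon by codon, c8759_g2 covered codons 1 to 251, c8759_g1 codons 253 to 735 and c8759_g3, which was assembled in reverse, codons 746 to 992. The fourth piece, c12311_g1, did not align to ATP2A1. A stretch of 90 bases from near each end of the protein is given, with the bases that differ between the genes in capitals. The first pair spans codons 111 to 140 (ATP2A1 bases 538 to 627, ATP2A2 c8759_g2 bases 668 to 757) and differed at 25 bases.
ATP2A1: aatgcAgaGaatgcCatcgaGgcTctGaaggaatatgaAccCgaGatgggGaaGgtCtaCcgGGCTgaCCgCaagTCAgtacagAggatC
ATP2A2: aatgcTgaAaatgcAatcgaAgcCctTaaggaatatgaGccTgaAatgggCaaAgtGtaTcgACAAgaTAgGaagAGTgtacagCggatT
The second pair spans codons 854 to 883 (ATP2A1 bases 2767 to 2856, and bases 1143 to 1232 of ATP2A2 c8759_g3, read on its minus strand) and differed at 28 bases.
ATP2A1: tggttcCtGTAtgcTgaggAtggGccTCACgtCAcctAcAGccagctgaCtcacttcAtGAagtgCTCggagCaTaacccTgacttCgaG
ATP2A2: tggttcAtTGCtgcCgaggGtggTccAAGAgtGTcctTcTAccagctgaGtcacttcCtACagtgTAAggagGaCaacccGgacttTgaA
The 3 aligned ATP2A2 pieces matched ATP2A1 at 71.0 to 76.8% of bases, and the longest run of identical bases was 23. No stretch of 31 bases was shared between a unigene of these genes and any other unigene, except 71 such stretches between the JPH1 unigene and c12224_g3, a small neighbour with 78, 10, 0 and 15 counts in the 4 libraries.

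The libraries held 8533046 (control), 7962590, 7339521 and 6675218 (treated 1 to 3) expected counts, the authors' estimates of fragments per unigene. Counts of unigenes paired with a named goat gene made up 71.3% of the control library and 50.1%, 1.82% and 40.4% of treated libraries 1, 2 and 3. Unigenes paired with a protein that has no gene name in the table, mostly proteins of the mitochondrial genome, made up 22.2%, 37.5%, 84.3% and 49.7%. Treated library 2 therefore stood apart, with 133809 counts for all named genes, so that 3 counts, the limit that a count of 0 allows, stood for 22.4 CPM (counts per 1000000 counts of named genes) there and for 0.493 to 1.11 in the others. The x-fold below is the share of a gene among the counts of named genes in a treated library divided by its share in the control library, and the x-fold relative to all counts is given where it changes the reading. Most other genes also had lower shares than in the control library, and the median x-fold over the 4418 genes with at least 100 control counts was 0.713, 0.590 and 0.685 in treated libraries 1 to 3, and 0.501, 0.0151 and 0.388 relative to all counts. The skeletal muscle markers CKM, DES and MB were abundant in all 4 libraries (together with ACTA1 64430 to 110535 CPM), whereas ACTA1 itself was listed with 130, 6, 0 and 3 counts. Fibroblast markers (3 of 5 listed genes in the table) summed to 114, 168, 2220 and 270 CPM and adipocyte markers (2 of 4) to 13.3, 102, 777 and 25.2, in both cases highest in treated library 2. Endothelial (4 of 4), smooth muscle (4 of 4) and nerve markers (3 of 4) were also highest there. They summed to 740, 277 and 172 CPM, against 297, 133 and 20.5 in the control library. Myeloid markers (2 of 4) had 0 counts in treated library 2. Results that rest on treated library 2 are given with and without it.

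Together the 8 genes took 27068 CPM in the control library, against 14526, 10149 and 19381 in treated libraries 1 to 3. Their order of level, in CPM per kilobase of effective unigene length, was ATP2A1 (3220), CASQ1 (1644), ATP2A2 (686), RYR1 (597), JPH1 (255), STAC3 (229), TRDN (148) and CASQ2 (45.1) in the control library. With 1 control library there is no replicate spread on which to separate neighbours in this order. ATP2A1 and CASQ1 held the first and second places also in treated libraries 1 and 3 (ATP2A1 2237 and 3130, CASQ1 1536 and 2345 CPM per kilobase), and CASQ2 was the lowest in all 4 libraries. In treated library 2, ATP2A1 (1212) was followed by TRDN (921) and CASQ1 (883).

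**Figure D1:**
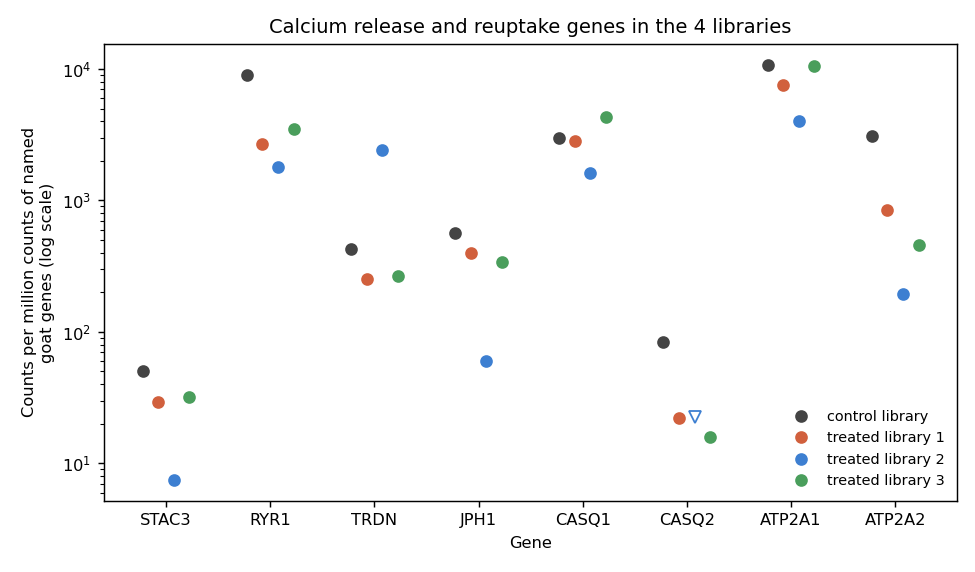
Level of each gene in CPM of named goat genes (log scale) in the control library and in treated libraries 1, 2 and 3; 1 point is 1 library and the open triangle is the limit of 22.4 CPM that a count of 0 allows for CASQ2. The control point is the highest for RYR1, ATP2A1, ATP2A2, CASQ2, JPH1 and STAC3, whereas TRDN is highest in treated library 2 (2429 CPM) and CASQ1 in treated library 3 (4292 CPM).

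The release channel RYR1 had 55187 counts in the control library against 10653, 242 and 9451 in treated libraries 1 to 3, which corresponded to 9067, 2669, 1809 and 3503 CPM. All 3 treated libraries lay below the control library. The x-fold was 0.294 (95% exact interval 0.288 to 0.301), 0.199 (0.175 to 0.226) and 0.386 (0.378 to 0.395), and these intervals, like all those below, cover counting error only. Among the genes with at least 100 control counts, 10.6%, 17.6% and 15.2% had a lower x-fold than RYR1 in the 3 libraries. Such shares, here and below, include genes with no count in the treated library, which stand at an x-fold of 0. In treated library 2, with its low count for named genes, the share was therefore not read as genes that lie truly lower. The 2 assembled RYR1 transcripts (15376 and 15394 bases) each took 49.4 to 50.6% of the RYR1 counts in every library.

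STAC3, the adaptor of the voltage sensor, was represented by a single short unigene of 421 bases with 309, 117, 1 and 86 counts. Its levels were 50.8, 29.3, 7.47 and 31.9 CPM, highest in the control library. The x-fold was 0.577 (0.463 to 0.717) in treated library 1 and 0.628 (0.489 to 0.800) in treated library 3. In treated library 2, where STAC3 rested on 1 count, it was 0.147 (0.00371 to 0.826), and the difference did not pass the exact binomial test after adjustment over all genes (adjusted p = 0.105). Each of the other differences between one of the 8 genes in a treated library and in the control library passed this test, which compares 2 libraries and not the conditions (highest exact adjusted p = 0.000683, for ATP2A1 in treated library 3).

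JPH1, which spans the triad gap, had 3437, 1598, 8 and 916 counts, or 565, 400, 59.8 and 340 CPM. The control library was the highest, and treated library 2 the lowest. The x-fold was 0.709 (0.668 to 0.753), 0.106 (0.0457 to 0.209) and 0.601 (0.558 to 0.647).

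TRDN, the anchor between RYR1 and calsequestrin, had 2605, 1009, 325 and 714 counts, or 428, 253, 2429 and 265 CPM. Treated libraries 1 and 3 lay below the control library and treated library 2 lay above it. The x-fold was 0.591 (0.549 to 0.635), 5.67 (5.04 to 6.37) and 0.618 (0.568 to 0.672). In treated library 2, 98.4% of genes had a lower x-fold than TRDN, and TRDN took 23.9% of the counts of the 8 genes, against 1.58% in the control library. Relative to all counts, the TRDN x-fold in treated library 2 was 0.145, while the median gene was at 0.0151, so that the direction depended on the denominator and the place of TRDN among the genes did not. The part of the fibroblast, adipocyte and other cell marker signals, or of the low count of this library, in the TRDN value was not tested.

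Both listed genes without a paired unigene belong to this group, and unigenes outside the rule resembled them. A unigene of 8182 bases (c13515_g1), whose best nucleotide match in the annotation was CACNA1S, was paired by protein with CACNA1D at 67% identity. It had 3856, 1739, 54 and 1226 counts and an x-fold of 0.688 (0.650 to 0.728), 0.637 (0.478 to 0.833) and 0.717 (0.672 to 0.765). An unpaired unigene (c12224_g1) whose best nucleotide match was JPH2 had 1077, 258, 6 and 401 counts and an x-fold of 0.365 (0.318 to 0.419), 0.253 (0.0928 to 0.553) and 0.840 (0.747 to 0.943). Relative to all counts, the CACNA1S-matching unigene was at 0.483, 0.0163 and 0.406 and the JPH2-matching unigene at 0.257, 0.00648 and 0.476.

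CASQ1, the calsequestrin of fast fibres, had 18261, 11227, 215 and 11579 counts, or 3000, 2813, 1607 and 4292 CPM. The control library lay within the range of the treated libraries. The x-fold was 0.938 (0.916 to 0.960) in treated library 1, 0.536 (0.466 to 0.613) in treated library 2 and 1.43 (1.40 to 1.46) in treated library 3. The value in treated library 3 was above that of 89.8% of genes, and it was 0.811 relative to all counts.

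CASQ2, the cardiac and slow-fibre calsequestrin, had 509, 89, 0 and 43 counts, or 83.6, 22.3, 0 and 15.9 CPM. The control library was the highest. The x-fold was 0.267 (0.210 to 0.335) in treated library 1 and 0.191 (0.136 to 0.260) in treated library 3. In treated library 2 CASQ2 was at least 3.73-fold lower, when 3 counts are taken as the limit for a count of 0. In treated libraries 1 and 3, 8.94% and 3.06% of genes had a lower x-fold.

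ATP2A1, the fast-fibre SERCA pump, had 65495, 29893, 541 and 28265 counts, which made it the gene with the most counts of the 8 in every library. Its levels were 10761, 7490, 4043 and 10478 CPM, highest in the control library. The x-fold was 0.696 (0.687 to 0.706), 0.376 (0.345 to 0.409) and 0.974 (0.960 to 0.987). Scaled so that the median gene of each library stood at 1, these values became 0.977, 0.636 and 1.42.

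ATP2A2, the slow-fibre and cardiac SERCA pump, had 18939, 3387, 26 and 1229 counts, or 3112, 849, 194 and 456 CPM. All 3 treated libraries lay below the control library. The x-fold was 0.273 (0.263 to 0.283), 0.0624 (0.0408 to 0.0915) and 0.146 (0.138 to 0.155), and 9.26%, 9.73% and 1.67% of genes had a lower x-fold. The share in treated library 2 again includes genes with no count there.

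The pieces of ATP2A2 did not move alike. The unigene of the start of the protein (c8759_g2) had 3722, 65, 5 and 62 counts, with an x-fold of 0.0266 (0.0205 to 0.0340), 0.0611 (0.0198 to 0.143) and 0.0376 (0.0288 to 0.0483). The middle unigene (c8759_g1) had 7088, 189, 10 and 234 counts, with an x-fold of 0.0407 (0.0350 to 0.0470), 0.0642 (0.0308 to 0.118) and 0.0745 (0.0651 to 0.0849). The unigene of the end of the protein (c8759_g3) had 8009, 3072, 10 and 923 counts, with an x-fold of 0.585 (0.561 to 0.610), 0.0568 (0.0272 to 0.104) and 0.260 (0.243 to 0.278). In treated libraries 1 and 3 the intervals of the last piece did not overlap those of the first 2, and it held most of the ATP2A2 counts there. The fourth unigene (c12311_g1) had 120, 61, 1 and 10 counts, with an x-fold of 0.775 (0.560 to 1.06), 0.379 (0.00952 to 2.15) and 0.188 (0.0879 to 0.358). Each of the 3 aligned pieces was below 0.6 in each treated library, so the direction of ATP2A2 did not rest on 1 piece, but the size of its x-fold in treated libraries 1 and 3 did.

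**Figure D2:**
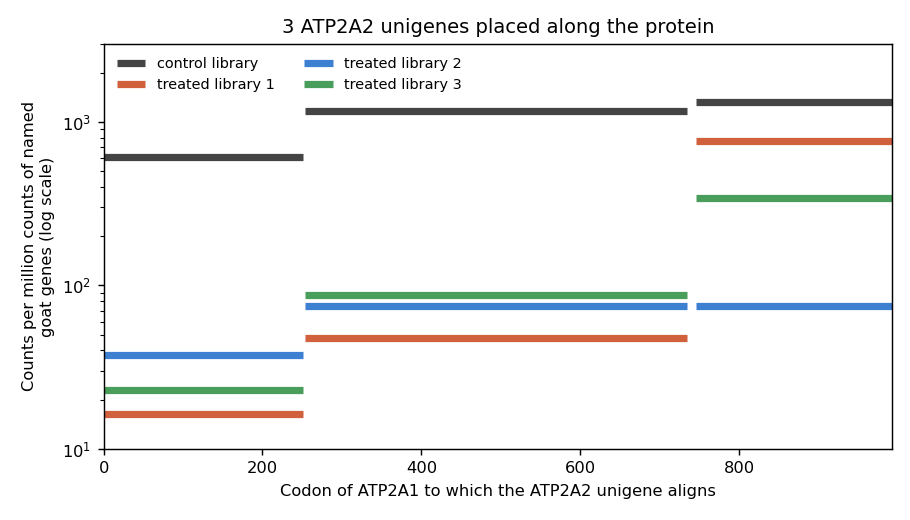
Level of the 3 ATP2A2 unigenes that align to ATP2A1, in CPM of named goat genes (log scale), drawn along the ATP2A1 codons they cover; each bar is 1 unigene in 1 library. The control library is the highest over every piece, and treated libraries 1 and 3 come nearer to it over codons 746 to 992 than over codons 1 to 735.

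The study set limits of 3 and 0.6 on the x-fold. Below 0.6 were 5 of the 8 genes in treated library 1 (RYR1, STAC3, TRDN, CASQ2 and ATP2A2), 7 in treated library 2 (all but TRDN) and 3 in treated library 3 (RYR1, CASQ2 and ATP2A2). Among all genes with at least 100 control counts, 39%, 50.8% and 40% were below 0.6. Above 3 was TRDN in treated library 2, against 4.96% of all genes there, and no other gene of the 8 in any treated library (2.13% and 0.702% of all genes in treated libraries 1 and 3). RYR1, CASQ2 and ATP2A2 were below 0.6 in all 3 treated libraries, as were 21% of all genes, and the same 3 were below it in treated libraries 1 and 3 alone, as were 26.5%. With backgrounds this high, none of these counts was read as particular to the 8 genes. When an adjusted p under 0.01 in the exact binomial test was also required, 5, 6 and 3 of the 8 were below 0.6. So were 39%, 11.7% and 39% of all genes with at least 100 control counts. A gene with few counts passes this test less readily, so these counts too were not read as particular to the 8 genes. The median x-fold of the 8 genes was 0.584, 0.173 and 0.610, against 0.713, 0.590 and 0.685 over all genes. Relative to all counts, 7, 8 and 7 of the 8 genes were below 0.6, as were 61.2%, 99.8% and 78.5% of all genes. Relative to the counts of all paired unigenes, those without a gene name included, 7 of the 8 were below 0.6 in all 3 treated libraries, as were 53.3% of all genes, and TRDN in treated library 2 was at 0.158. With each library scaled to its median gene, 3, 5 and 3 were below it, as were 21.9%, 31.8% and 17.5%, and RYR1, CASQ2 and ATP2A2 remained those below it in all 3.

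**Figure D3:**
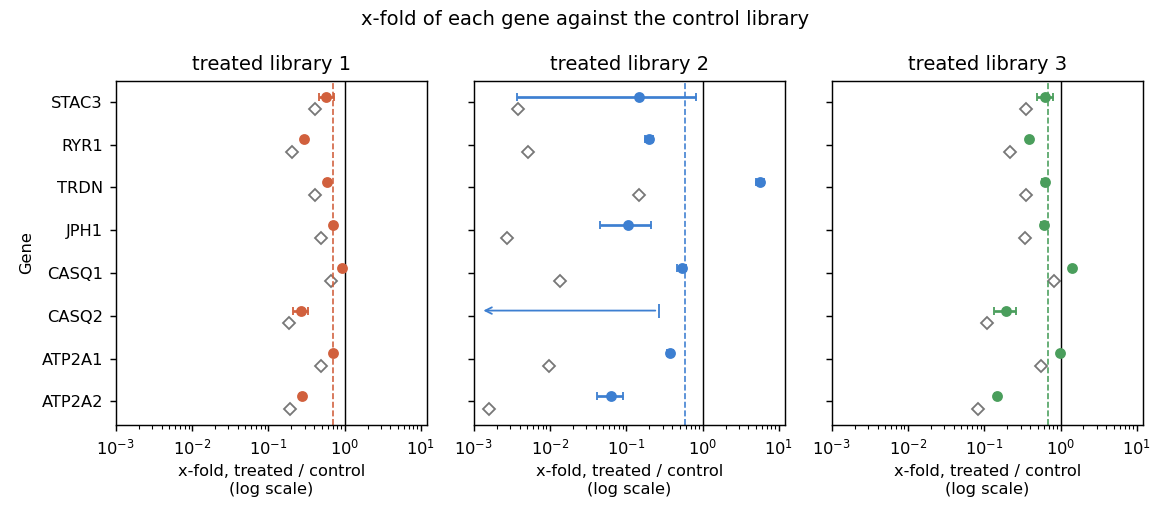
x-fold of each gene against the control library (log scale) in treated libraries 1, 2 and 3. Filled circles are relative to the counts of named goat genes, with 95% exact intervals of counting error; the arrow starts at the 3-count limit for CASQ2, which had no count in treated library 2; open diamonds are relative to all counts; the solid line marks 1 and the dashed line the median over genes with at least 100 control counts (0.713, 0.590 and 0.685). RYR1, STAC3, JPH1, CASQ2 and ATP2A2 lie left of the dashed line in all 3 panels, and TRDN lies right of 1 in treated library 2 alone (5.67).

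The 3 treated libraries were also compared as a group with the control library by edgeR's quasi-likelihood test, in which the lone control library is assumed to vary like the treated ones and the p-values measure the spread between the treated libraries. None of the 8 genes passed an adjusted p of 0.05 by edgeR, among 38 of 8494 genes (0.447%) called by edgeR in all. By DESeq2 none of the 8 passed it either, and 2 of them had an unadjusted p under 0.05, as had 418 of 11195 genes. At an unadjusted p under 0.05 there were 2 of the 8 by edgeR, as against 11.2% of all genes tested by it. These were ATP2A2 (log2 fold change −2.27 ± 0.83 SE, edgeR adjusted p = 0.213) and CASQ2 (−1.98 ± 0.73, edgeR adjusted p = 0.218), both of which were lower in 3 of 3 treated libraries. RYR1, also lower in 3 of 3, had −1.44 ± 0.85 (edgeR adjusted p = 0.577). TRDN had 1.32 ± 1.03, which became −0.33 without treated library 2. ATP2A1 (−0.21 ± 0.92), CASQ1 (0.30 ± 0.93), JPH1 (−0.68 ± 0.86) and STAC3 (−0.58 ± 0.74) differed by less than their standard errors. The median log2 fold change was −0.63 over the 8 genes and −0.01 over all genes tested. Without treated library 2 it was −0.33 over the 8 genes and 0.02 over all, and JPH1 and STAC3 were at −0.21 and −0.33. A permutation of the labels of 3 libraries against 1 cannot give a 2-sided p below 0.5.

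Within a library, the ratio of 2 genes does not depend on how libraries are scaled, and it was compared for the slow and fast form of each pair. There were 28.9 counts of ATP2A2 per 100 counts of ATP2A1 in the control library against 11.3, 4.81 and 4.35 in the treated ones. All 3 treated libraries were lower, and the odds ratio to the control library was 0.392, 0.166 and 0.150. Of CASQ2 there were 2.79 counts per 100 counts of CASQ1 in the control library against 0.793, 0 and 0.371 in the treated ones. Here too all 3 were lower, with an odds ratio of 0.284 and 0.133 in treated libraries 1 and 3, and the limit of 3 counts for the 0 in treated library 2 was 1.40 per 100. Of TRDN there were 14.3 counts per 100 counts of CASQ1 in the control library against 8.99, 151 and 6.17 in the treated ones, lower in treated libraries 1 and 3 and higher in treated library 2. In Fisher's exact test, which compares 2 libraries and not the conditions, the highest adjusted p over the 9 comparisons was 0.00486, for CASQ2 to CASQ1 in treated library 2.

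The ratio of the SERCA pumps was sensitive to the piece of ATP2A2 that was counted. With the end of the protein alone (c8759_g3), there were 12.2 counts per 100 of ATP2A1 in the control library against 10.3, 1.85 and 3.27 in the treated ones, with odds ratios of 0.840, 0.151 and 0.267. Without that piece, the odds ratios were 0.0631, 0.177 and 0.0649. The direction was the same in both cases, while the size in treated library 1 ranged from 0.840 to 0.0631.

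**Figure D4:**
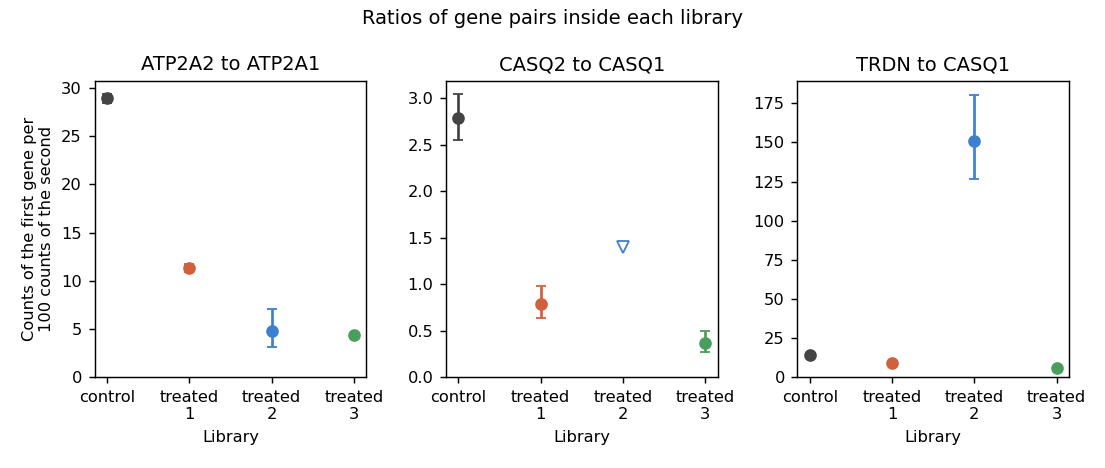
Counts of the first gene of a pair per 100 counts of the second inside each library (linear axes from 0), with 95% exact intervals of counting error; the open triangle is the 3-count limit for CASQ2 in treated library 2. ATP2A2 per ATP2A1 (28.9 in the control library) and CASQ2 per CASQ1 (2.79) are lower in all 3 treated libraries, and TRDN per CASQ1 is 151 in treated library 2 and below the 14.3 of the control library in treated libraries 1 and 3.

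ATP2A2 and CASQ2 are used by slow fibres and by heart, so the markers of both are given beside them. Of 6 heart markers 1 was in the table, TNNT2, with 1, 1, 5 and 0 counts. Of 7 slow-fibre markers 6 were in the table (not MYH7), and their median x-fold was 0.762, 0.269 and 0.524. MYL2, the slow regulatory light chain, had an x-fold of 0.266, 0.222 and 0.216, and MYL3, the slow essential light chain, one of 0.0294, 0.267 and 0.0719. The slow troponin I, TNNI1, was at 0.742, 0.107 and 0.554 and the slow tropomyosin TPM3 at 0.782, 0.271 and 0.493. TNNC1 had an x-fold of 2.33, 1.54 and 1.83 and TNNT1 one of 1.11, 0.792 and 0.892. The members of the slow list thus differed in direction, and its summed level was 32423 CPM in the control library against 43218, 27928 and 33832 in the treated ones. Of 9 fast-fibre markers 5 were in the table, with a median x-fold of 2.10, 0.560 and 1.94 and a summed level of 44616, 92393, 35409 and 95314 CPM. They too differed in direction. MYL1 (3.16, 1.55 and 3.42) and TNNT3 (2.69, 2.00 and 3.13) were above 1 in each treated library. MYH4 was at 2.10, 0.301 and 1.94. MYH2 (0.164, 0.560 and 0.804) and ACTN3 (0.842, 0.349 and 0.955) were below 1 in each. The part of the fibre types in the ratios of the SERCA pumps and calsequestrins was not tested.

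The x-fold moved with the length of the unigene, which bears on RYR1, the longest of the 8. Over unigenes with at least 100 control counts, the median x-fold in treated libraries 1, 2 and 3 was 1.23, 1.20 and 1.32 for the 470 unigenes under 1 kb and 0.493, 0.274 and 0.485 for the 45 unigenes of 8 kb or more. Of the latter, 64.4%, 77.8% and 66.7% were below 0.6. RYR1, at 0.294, 0.199 and 0.386, was below the median of its class in each library, between the quartiles of the class in treated libraries 2 and 3 and below it in treated library 1 (lower quartile 0.327). The 4 ATP2A2 unigenes were in the class of 1 to 2 kb, with medians of 0.814, 0.716 and 0.825, and the CASQ2, CASQ1, ATP2A1, TRDN and JPH1 unigenes in that of 2 to 4 kb, with medians of 0.634, 0.474 and 0.614. Thus ATP2A1 and CASQ1 in treated libraries 1 and 3 were above their class median and CASQ2 was below it. STAC3, at 421 bases, was below the median of its class in all 3 libraries. The part of length in the RYR1 value was not tested.

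**Figure D5:**
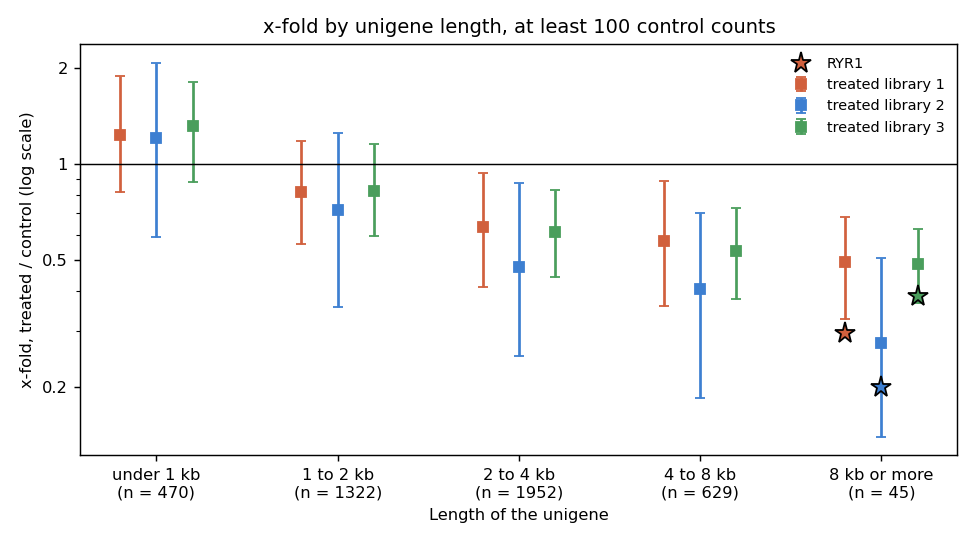
x-fold against the control library (log scale) by length of the unigene in treated libraries 1, 2 and 3, for unigenes with at least 100 control counts; squares are medians, bars run from the lower to the upper quartile, n is the number of unigenes and stars are RYR1. The medians are 1.20 to 1.32 under 1 kb and 0.274 to 0.493 at 8 kb or more, and RYR1 (0.294, 0.199 and 0.386) is below the median of its class in each library.

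A further list of 49 genes of calcium handling was examined around these 8, of which 34 were in the table and 25 had at least 100 control counts. Of the 25, 9, 15 and 6 were below 0.6 in treated libraries 1, 2 and 3, against 39%, 50.8% and 40% of all genes. Above 3 were 0 of the 25, against 2.13%, 4.96% and 0.702% of all genes. The minimum of 100 control counts leaves out genes that were low in the control library. A rise from a low level, as for PVALB below, is therefore not in these counts. Their median x-fold was 0.834, 0.479 and 0.760, against 0.713, 0.590 and 0.685 over all genes. Below 0.6 in all 3 treated libraries were 2 of the 25, against 21% of all genes. Both encode subunits of CaMKII, a kinase that decodes calcium signals. CAMK2D had 394, 33, 1 and 48 counts and an x-fold of 0.128, 0.115 and 0.275, and CAMK2B had 1155, 370, 7 and 166 counts and an x-fold of 0.489, 0.276 and 0.324. Among genes with fewer counts, ITPR1, a release channel opened by inositol trisphosphate, had 12, 1, 0 and 0 counts, and RYR2, the cardiac release channel, had 1 count in the control library and 0 in the others. PVALB, the cytosolic calcium buffer of fast fibres, had no count in the control library against 25, 1 and 5 in the treated ones. With 3 counts taken as the limit for the 0, PVALB was 12.7-fold higher in treated library 1 and 3.76-fold in treated library 3. These values leave out counting error in the treated counts, and the lower ends of the exact intervals were 9.59 and 2.07. By edgeR, 0 of the 28 listed genes tested were called and 2 (PVALB and CAMK2D) had an unadjusted p under 0.05, against 0.447% and 11.2% of all genes tested.

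Among the 10 most abundant of these genes in the control library were, in CPM per kilobase, DHRS7C (556), JSRP1 (511), HRC (405), CALM2 (348), S100A1 (189), SRL (188), SYPL2 (110), TMEM38A (102) and the unigene paired with CACNA1D (97.8). Several of them sit in the sarcoplasmic reticulum beside the 8 genes. The lumenal calcium binder HRC had 4156, 2488, 57 and 1777 counts and an x-fold of 0.913, 0.624 and 0.965, and JSRP1, a junctional protein, had 3213, 1957, 33 and 1395 counts and an x-fold of 0.929, 0.467 and 0.980. In treated libraries 1 and 3 both were thus closer to CASQ1 than to RYR1 or ATP2A2. SRL (sarcalumenin) was at 0.507, 0.307 and 0.940, TMEM38A, a counter-ion channel of the reticulum, at 0.519, 0.206 and 0.648 and SYPL2, a protein of the triad, at 0.552, 0.273 and 0.887. DHRS7C was at 0.850, 1.25 and 1.49, and S100A1, which binds RYR1 and SERCA2, at 0.834, 0.390 and 0.387. CALM2, at 1.05, 0.479 and 1.00, was close to the control library in treated libraries 1 and 3. PLN, the inhibitor of SERCA2, was chosen after its values were seen, and it had 1072, 1602, 5 and 361 counts and an x-fold of 2.28, 0.212 and 0.760, in contrast to 0.273, 0.0624 and 0.146 for the pump itself.

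Of the 4418 genes with at least 100 control counts, 4007 were compared by their 3 log2 x-fold values. A count of 0 gives no such value. The genes nearest to RYR1 were PPT2 (distance 0.047), FAM160B2 (0.086) and KALRN (0.11). Nearest to ATP2A1 were MRPL44 (0.17), SPCS3 (0.17) and PSMB5 (0.18). ATP2A2 had no neighbour so close, and nearest to it were CPT1B (0.40), XIRP2 (0.42) and KIAA1217 (0.67). In treated library 2, KIAA1217 stood at 0.0833 with 1 count, from 546 in the control library. A compared gene with fewer control counts could not come nearer to ATP2A2 there. The larger distances of ATP2A2 were therefore not read as particular to this gene. XIRP2, a structural protein of muscle, had 33422, 6292, 57 and 1796 counts and an x-fold of 0.287, 0.0776 and 0.121. These distances rest on 3 values each, and 8 of the 9 neighbours had 1 to 5 counts in treated library 2.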

How the data were processed

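The authors extracted total RNA from muscle, prepared libraries with a NEBNext Ultra kit and sequenced them on an Illumina HiSeq instrument. Reads were assembled into unigenes. FastQC 0.10.1 is named in the submitters' processing notes, and the assembler and counter are not given in the sources used here. For each unigene and transcript the authors deposited expected counts, all whole numbers, and also TPM and FPKM, which were not tested. A further deposited table pairs unigenes with goat proteins and gives the percent identity of each match. The share of each transcript in its unigene was deposited as a percent as well, and was recomputed here from counts. Tables of FPKM classes were not used.

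Expected counts were summed per named goat gene. Unigenes paired with a protein that has no gene name (25 of them, mostly matching proteins of the mitochondrial genome) were left out of library sizes. They held 22.2%, 37.5%, 84.3% and 49.7% of the counts of the control library and treated libraries 1, 2 and 3. Leaving them out departs from the planned denominator and was decided after seeing the data. 2 libraries were compared by exact binomial tests with Clopper-Pearson intervals, and gene pairs by Fisher's exact test. 3 libraries were compared with 1 by edgeR 4.0.16 (R 4.3.3, TMM, filterByExpr) after a test on simulated data. The simulated counts had a lower dispersion than the common dispersion of 0.230 fitted here, so that test does not measure performance on these data. The p-values of genes had Benjamini-Hochberg adjustment over all genes. Python 3.11.15, scipy 1.17.1 and Biopython 1.88 were used. DESeq2 1.42.0, other denominators, limits, filters, an identity minimum of 80%, a pseudocount of 0.5 counts and leaving out each treated library were alternatives. Genes and lists were chosen with earlier results of these data known. Named were all 8 genes, and of the further list those past the same limit in all 3 treated libraries, called by edgeR or among the 10 highest per kilobase, of which 1 is not reported here. The 3 nearest genes to RYR1, ATP2A1 and ATP2A2 were those with at least 100 control counts, a log2 x-fold in each treated library and the smallest Euclidean distance. Planned ratios with CACNA1S and JPH2 could not be computed. Genome coordinates are not given because the unigenes were assembled without a named build. Sequences are from the deposited annotation table. Where the counts did not use strand, reads of overlapping antisense genes cannot be told apart.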

Additional observations from a re-analysis of the deposited data

How the results depend on the processing

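Levels in treated library 2 rested on 133809 counts for all named genes where CASQ2, STAC3 and JPH1 had 0, 1 and 8 counts. Of 168 x-fold values recomputed for single genes, 154 kept their direction and their side of an adjusted p of 0.01 in the exact binomial test, though not always of the x-fold limits, 6 were weaker, 2 stronger and 6 reversed. Many of the 154 could not have changed, so this number was not read as a measure of robustness. The identity minimum removed no unigene of the 8 genes and left their x-fold values as they were. Counting only the unigene with the most counts, or ATP2A2 without the unigene of its end, could change ATP2A2 alone. All 36 recomputed ratios of gene pairs kept their direction and an adjusted p below 0.01 in Fisher's exact test. Only those of ATP2A2 to ATP2A1 could change, since CASQ1, CASQ2 and TRDN each had 1 unigene. The identity minimum left the ATP2A2 to ATP2A1 ratios unchanged as well. Relative to all counts, 7 genes were below 0.6 in treated library 3 and 7 in all 3 treated libraries, 0 were above 3 in treated library 2, TRDN there was at 0.145 and CASQ1 in treated library 3 at 0.811. With unigenes lacking a gene name kept in the denominator, as first planned before they were left out after seeing the data, these values were 7, 7, 0, 0.158 and 0.841. With each library scaled to its median gene, 3 genes were below 0.6 in treated library 1, CASQ1 there was at 1.32 and ATP2A1 in treated library 3 at 1.42. With limits of 2 and 0.5, 3 genes were past the lower limit in treated library 1. These scaling changes follow from the denominators themselves.

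The count of genes called by edgeR was 38, and it was 59 with totals of named genes, 104 without a filter, 0 with totals of all counts (37 at an unadjusted p under 0.05) and 4 by DESeq2. Without 1 treated library it ranged from 1 to 68, and it was 7 without treated library 1, 68 without treated library 2 and 1 without treated library 3. None of the 8 genes was called in any of these fits. With totals of named genes the log2 fold change of CASQ1 was −0.046, and with totals of all counts that of CASQ1 was −1.02 and that of TRDN −1.72. Without 1 treated library the log2 fold change ranged from −0.59 to 0.14 for ATP2A1, from −0.33 to 1.78 for TRDN and from −0.13 to 0.64 for CASQ1. The cause of these changes was not tested. No paired analysis was possible because there was 1 control library.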

Other observations

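The assembled transcripts of 3 genes were counted in different proportions in the control and treated libraries. Of the counts of the JPH1 unigene, the transcript of 2342 bases took 29.6% in the control library against 5.44%, 12.5% and 13.1% in treated libraries 1 to 3. The transcript of 2156 bases took 36.3% in the control library against 57.8%, 50% and 53.6%, and treated library 2 rested on 8 counts in all. Of the counts of the TRDN unigene, the transcript of 2353 bases took 17.0% in the control library against 23.7%, 25.2% and 25.9% in the treated ones, and that of 2317 bases 15.5% against 18.8%, 24.9% and 22.8%. Of the counts of the CASQ2 unigene, the transcript of 1357 bases took 13.0% in the control library against 2.25% and 6.98% in treated libraries 1 and 3, and that of 1809 bases 32.0% against 52.8% and 37.2%, with no count in treated library 2. The transcripts of a unigene share most of their bases, so these shares depend on how the authors' counter split the reads, and they were not tested.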
